A study of Mus musculus with 2 samples.

Results

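The genes described here encode amino acid transporters of the plasma membrane and the proteins through which amino acid supply meets the kinase mTOR in T cells. They are 10 genes chosen by name, Slc7a5, Slc3a2, Slc1a5, Slc38a1, Slc38a2, Slc7a6, Mtor, Rptor, Rheb and Myc, of 24346 gene symbols that were measured, and all 10 were found in both libraries. The measurements come from bulk RNA-seq of GFP+CD4+ T cells of Foxp3-DTR-GFP (FDG) mice, in which GFP is driven from the Foxp3 locus and so marks regulatory T cells (Tregs). All mice had received bleomycin (BLM), which injures the lung, and cells were sorted on day 15 from the spleen for 1 library and from the lung for the other. The cells of several mice were pooled into each library, no library came from mice without BLM, and both libraries carry the reporter allele, so the only contrast is lung Tregs against splenic Tregs. With 1 library per tissue, none of the differences could be checked against replicates and p-values were not computed. The lung was digested with enzymes before sorting, and tissue and preparation cannot be told apart.

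T cells that are activated take up large amounts of amino acids. Slc3a2 (CD98) is a heavy chain that carries light chains such as Slc7a5 (LAT1) to the cell surface, where the pair imports leucine and other large neutral amino acids in exchange for intracellular amino acids. Slc1a5 (ASCT2), Slc38a1 (SNAT1) and Slc38a2 (SNAT2) import glutamine and small neutral amino acids. Leucine and other amino acids bring the kinase complex mTORC1, built from mTOR and Raptor (Rptor), to the lysosome through the Rag GTPases, and there the small GTPase Rheb switches it on. Myc is a transcription factor that is known to raise the expression of amino acid transporters after T cell receptor stimulation, and Treg function is known to require mTORC1.

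Levels are given in FPKM, fragments scaled to the exon length of a gene and to the mapped fragments of a library, which allows genes to be compared within a library. Reads behind each value were estimated from FPKM and transcript length, and intervals drawn from them are 95% intervals that cover counting error only, not variation between mice or the amplification of cDNA. Foxp3 had 18.7 FPKM in spleen and 41.8 in lung and Cd4 at 195 and 179, so both labelled sorts held the RNA of their defining genes. Of 8 Treg genes, Foxp3 among them, 4 were higher and 4 lower in lung. Their median log2 ratio was 0.12, and their summed level was 1473 FPKM in spleen and 2071 in lung. Of 9 T cell genes, 7 were lower in lung, with a median log2 ratio of -0.28, and their summed level was 4484 FPKM in spleen and 4262 in lung. RNA of other cells was present as well. All 12 macrophage genes were higher in lung, their sum was 680 FPKM in spleen and 27289 in lung, and Lyz2 made up 24947 FPKM of the latter. None of the 12 was at 0 in either library. All 7 tested B cell genes were lower in lung (sum of the 8 listed genes 277 and 139 FPKM). The 7 fibroblast genes summed to 0.290 FPKM in spleen, where 4 of them were at 0, and to 163 in lung. The 7 lung epithelium genes summed to 12.8 FPKM in spleen and 3127 in lung, with Scgb1a1 making up 3021 of the latter. Of the 5 of them that were tested, 3 were higher in lung and 2 lower, with Epcam at 8.75 FPKM in spleen and 1.79 in lung. Of 7 neutrophil genes, 6 were higher in lung, with sums of 462 and 1208. The 10 genes are expressed by many cell types, so in these bulk libraries a difference in cell makeup, in the share of cells that express a gene and in RNA per cell cannot be told apart.

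Slc1a5 was the most highly expressed of the 10 genes in both tissues, and Mtor and Rptor were among the lowest. In splenic Tregs, Slc1a5 was at 147 FPKM, followed by Myc at 80.3, Slc3a2 at 55.7, Rheb at 49.7 and Slc38a2 at 40.1. Slc7a6 at 13.4, Slc38a1 at 12.4 and Slc7a5 at 11.3 FPKM formed a lower group, in which neighbours did not differ beyond counting error, and Mtor at 4.0 and Rptor at 3.77 did not differ from each other either. In lung Tregs, Slc1a5 at 117 FPKM was followed by Slc3a2 at 104, Rheb at 79.5, Slc38a2 at 41.2 and Myc at 38.1. Slc7a6 at 10.1 and Slc38a1 at 9.14 FPKM again did not differ beyond counting error, nor did Rptor at 6.77 and Slc7a5 at 5.84, and Mtor was lowest at 3.4. Myc thus stood above Slc3a2, Rheb and Slc38a2 in spleen and below all of them in lung. Among all symbols, Slc1a5 ranked 656 in spleen and 1039 in lung, whereas Mtor ranked 8767 and 9201. The estimated reads behind these values ranged from 249 for Rptor to 3886 for Slc1a5 in spleen and from 227 for Slc7a5 to 3510 for Slc1a5 in lung. For Slc3a2, Slc38a1 and Myc, which have transcripts of more than 1 length, these reads are approximate.

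**Figure D1:**
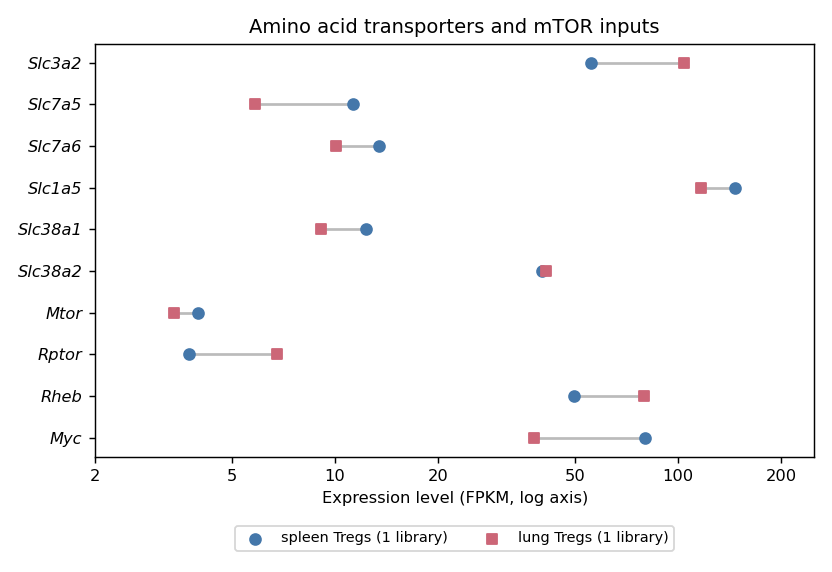
Expression level in FPKM on a log axis of the 10 genes in the splenic (blue circles) and the lung (red squares) library, 1 library each, so there are no error bars. The lung point lies to the right for Slc3a2, Rptor and Rheb, to the left for Slc7a5 and Myc, and nearly on the splenic point for Slc38a2 (40.1 and 41.2 FPKM).

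Against the spread of all genes these differences were moderate. Ratios of lung to spleen were taken after raising FPKM under 0.1 to 0.1, and 11421 symbols with a mean of at least 1 FPKM over both libraries served as the comparison, with all 10 genes among them. No member was more than 2-fold higher in lung, against 16% of the tested symbols, and 1 of 10, Myc, was more than 2-fold lower, against 13.7%. None passed the 20-fold threshold that the study set for its bulk data, which 3.46% of tested symbols exceeded upward and 2.49% downward. Over the 10 genes the median log2 ratio was -0.28, against 0.03 over all tested symbols. There were 4 members higher and 6 lower in lung, and 5 of the 10 lay within 1.5-fold of equality. The background depends on the level of a gene. Among symbols with a mean of 1 to 10 FPKM, the range of Slc7a5, Mtor and Rptor, 24.3% were over 2-fold higher and 22.9% over 2-fold lower in lung, whereas among symbols at 10 to 100 FPKM, the range of Slc3a2, Slc38a1, Slc38a2, Slc7a6, Rheb and Myc, only 9.12% and 7.72% were. At 100 FPKM or more, the range of Slc1a5, 14.1% were over 2-fold higher and 2.71% over 2-fold lower. The median log2 ratio there was 0.36.

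The direction of small differences depended on how the libraries were scaled to each other, which is not stated for the deposited FPKM. Rescaling both libraries to TPM shifted all log2 ratios by -0.43, equal upper quartiles by -0.18 and a median ratio of 1 over tested symbols by -0.03, whereas setting the median of the T cell genes to 1 shifted them by 0.28. Over all tested symbols, 1833 were over 2-fold higher and 1561 over 2-fold lower as deposited. After rescaling to TPM these numbers were 1298 and 2809, with equal upper quartiles 1548 and 1969, and with the T cell scaling 2487 and 1100, so that the share of higher symbols among them went from 54.0% as deposited to 31.6%, 44.0% and 69.3%. Slc3a2, Rptor and Rheb stayed higher in lung and Slc7a5, Myc, Slc1a5, Slc38a1 and Slc7a6 stayed lower under each of these scalings, but Slc38a2 and Mtor changed sides. Ratios between genes of the same library do not depend on the scaling, and they are given below beside the differences between libraries.

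**Figure D2:**
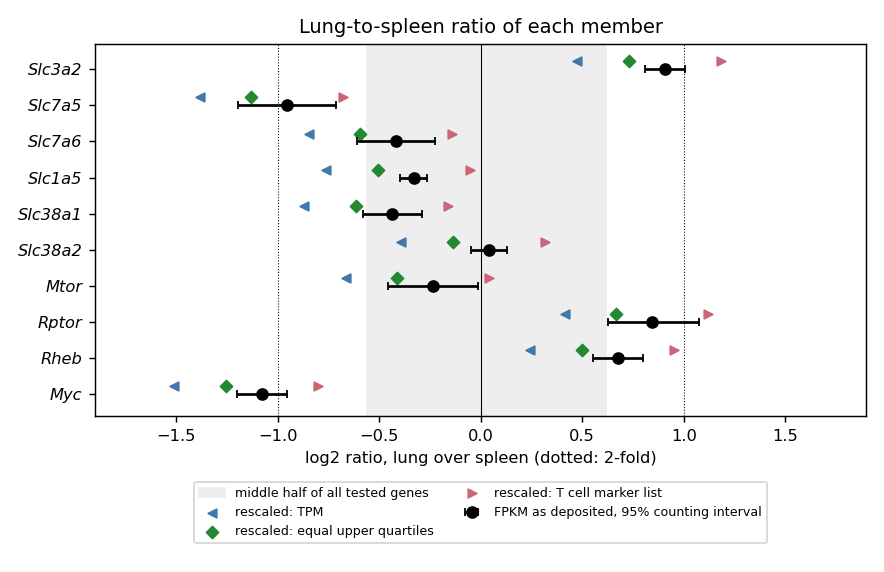
The log2 ratio of lung over spleen for each gene from the deposited FPKM (black, with 95% counting intervals) and after 3 rescalings of the libraries (coloured symbols), with the range between the quartiles of 11421 tested genes shaded (-0.56 to 0.62). Slc3a2, Rptor and Rheb stay to the right of 0 and Slc7a5 and Myc to the left under each scaling, while the symbols of Slc38a2 and Mtor fall on both sides.

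The heavy chain Slc3a2 was higher and the light chains Slc7a5 and Slc7a6 were lower in lung. In mm10, Slc7a5 lies on chromosome 8 from 121881146 to 121907686 on the minus strand and Slc7a6 on the same chromosome from 106168219 to 106198714 on the plus strand. Slc3a2 was at 55.7 FPKM in splenic and 104 in lung Tregs, 1.88-fold higher in lung (95% counting interval 1.75 to 2.01), and 82.2% of the tested symbols had a lower ratio. Slc7a5, the light chain that with Slc3a2 forms the leucine transporter LAT1, had 11.3 FPKM in spleen and 5.84 in lung, 1.94-fold lower in lung (1.64 to 2.29). Slc7a6, the light chain of y+LAT2, which exchanges cationic for neutral amino acids, was at 13.4 and 10.1 FPKM, 1.33-fold lower (1.17 to 1.52). Within the splenic library there were 4.93 FPKM of Slc3a2 for each FPKM of Slc7a5, and within the lung library 17.9, so that their ratio was 3.63-fold higher in lung (3.04 to 4.34) whatever the scaling. Of all pairs of tested symbols, 28.7% differed at least as much in their lung-to-spleen ratios. The same ratio against Slc7a6 was 4.14 in spleen and 10.4 in lung, and 40.2% of pairs differed at least as much. Against Foxp3, however, Slc3a2 was lower in lung, with a ratio of 2.97 in spleen and 2.5 in lung. The interval of that change (0.753 to 0.940) lay below 1, and 85.9% of pairs differed at least as much.

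The light chains that pair with Slc3a2 differed in their makeup between the tissues. Slc7a7, the light chain of y+LAT1, had 3.17 FPKM in spleen and 12.6 in lung and was the most highly expressed light chain there. Slc7a11, the cystine transporter xCT, was at 0.0642 and 0.791 FPKM, and the splenic value rested on about 6.0 reads. Slc7a10 was listed at 4.76 FPKM in spleen and at 0 in lung, and Slc7a8 (LAT2) at 0.908 and 0. Set against the 3 reads that a count of 0 allows, and with the splenic estimates of about 86.1 and 36.5 reads taken as they stand, Slc7a10 was at least 32.6-fold and Slc7a8 at least 13.8-fold lower in lung. The summed level of the 6 light chain genes was similar, 33.6 FPKM in spleen and 29.3 in lung, but Slc7a5 made up 33.6% of it in spleen and 19.9% in lung, Slc7a6 40.0% and 34.4%, and Slc7a7 9.42% and 43.0%. For each FPKM of all light chains together there were 1.65 FPKM of Slc3a2 in spleen and 3.57 in lung. The macrophage genes, whose sum is given above, were higher in the same library as Slc3a2, Slc7a7 and Slc7a11, and their part in these values was not tested.

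**Figure D3:**
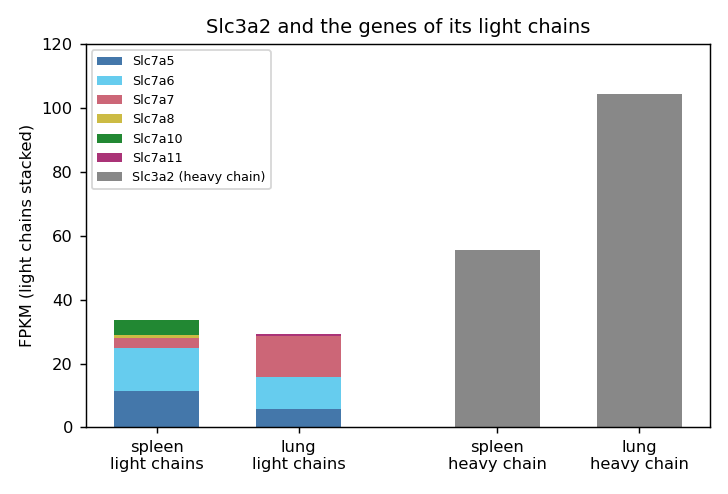
FPKM of the 6 light chain genes, stacked, and of the heavy chain gene Slc3a2 in the splenic and the lung library, 1 library each. The light chain stacks reach 33.6 and 29.3 FPKM with Slc7a7 (red) taking a larger part in lung, while the Slc3a2 bars stand at 55.7 and 104 FPKM.

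The glutamine carriers differed little between the tissues. Slc1a5 lies on the plus strand of chromosome 7 from 16781334 to 16798274, and Slc38a1 (96571418 to 96643438) and Slc38a2 (96687392 to 96699728) lie near each other on the minus strand of chromosome 15. Slc1a5 had 147 FPKM in spleen and 117 in lung, 1.26-fold lower in lung (1.20 to 1.32), and Slc38a1 was at 12.4 and 9.14 FPKM, 1.35-fold lower (1.22 to 1.49). The log2 ratio of Slc1a5, -0.33, lay below the lower quartile of symbols at 100 FPKM or more (0.0021). Slc38a2, which is known to be induced when amino acids run short, was at 40.1 and 41.2 FPKM, a ratio of 1.03 whose interval (0.966 to 1.09) includes 1. Its log2 ratio ranged from -0.39 after rescaling to TPM to 0.31 with the T cell scaling. Slc1a5 made up 73.6% of the FPKM of these 3 carriers in spleen and 69.8% in lung, and Slc38a2 20.2% and 24.7%. Between both SNAT genes, there were 3.25 FPKM of Slc38a2 for each FPKM of Slc38a1 in spleen and 4.52 in lung, a 1.39-fold higher ratio in lung (1.24 to 1.56). Of all pairs of tested symbols, 73.7% differed at least as much. The ratio of Slc1a5 to Slc38a1 was 11.9 in spleen and 12.8 in lung, and the interval of its change (0.966 to 1.20) includes 1. Against Slc3a2, however, Slc1a5 went from 2.63 FPKM per FPKM in spleen to 1.12 in lung, and 42.6% of pairs differed at least as much. The other SNAT genes of the plasma membrane were near or at 0, with 0.524 FPKM of Slc38a5 in spleen and 0 in lung, and 0 of Slc38a3 and Slc38a4 in both.

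Among the members, the adaptor and the activator of mTORC1 were higher in lung, and the kinase itself was not. Of the other subunits of the mTOR complexes, described below, 4 of 8 tested genes were higher and 4 lower. Rptor, whose product Raptor recruits substrates to the kinase, had 3.77 FPKM in spleen and 6.77 in lung, 1.80-fold higher in lung (1.54 to 2.1). Its log2 ratio of 0.85 lay between the quartiles of symbols at 1 to 10 FPKM (-0.91 to 0.97). Rheb was at 49.7 and 79.5 FPKM, 1.60-fold higher (1.46 to 1.74). The log2 ratio of Rheb was 0.68, above the upper quartile of symbols at 10 to 100 FPKM (0.43), and it became 0.24 after rescaling to TPM. Mtor, on the plus strand of chromosome 4 from 148448582 to 148557685, had 4.0 FPKM in spleen and 3.4 in lung, a log2 ratio of -0.23 (-0.45 to -0.01) that became 0.04 with the T cell scaling. For each FPKM of Mtor there was 0.941 FPKM of Rptor in spleen and 1.99 in lung, a 2.11-fold higher ratio in lung (1.71 to 2.62), and 47.7% of all pairs of tested symbols differed at least as much. The ratio of Rheb to Mtor was 12.4 in spleen and 23.3 in lung, 1.88-fold higher (1.58 to 2.23), and 53.9% of pairs differed at least as much. The ratio of Rheb to Rptor, 13.2 and 11.7, had an interval of its change (0.747 to 1.06) that includes 1. The antisense gene Rptoros shares 84 exonic bases with Rptor in the GENCODE annotation and had 0.446 FPKM in spleen and 0.393 in lung. None of the other members shared exonic bases with another annotated gene.

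The 3 members that were over 1.5-fold higher in lung are shown with the sequence around a RefSeq transcription start (GRCm38.p6, the assembly of mm10), since their ratios shared a direction. Each window holds 300 bases, 250 before the start and 50 from it on, written 5′ to 3′ on the strand of the gene. Slc3a2 lies on the minus strand of chromosome 19 from 8706882 to 8723369 and its window is chr19:8713848-8714147, around a start inside the annotated gene. Rptor lies on the plus strand of chromosome 11 from 119602905 to 119899591, with the window chr11:119602655-119602954, and Rheb on the minus strand of chromosome 5 from 24802823 to 24842361, with the window chr5:24842312-24842611. Capitals mark the E-box CACGTG, the letters that Myc and its partner Max bind, which reads the same on both strands.
Slc3a2: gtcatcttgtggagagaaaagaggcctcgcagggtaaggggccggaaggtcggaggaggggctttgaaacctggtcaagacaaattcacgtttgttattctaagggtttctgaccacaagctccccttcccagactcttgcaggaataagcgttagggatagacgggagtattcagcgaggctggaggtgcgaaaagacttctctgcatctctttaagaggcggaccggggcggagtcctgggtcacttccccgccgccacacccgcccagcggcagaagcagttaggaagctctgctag
Rptor: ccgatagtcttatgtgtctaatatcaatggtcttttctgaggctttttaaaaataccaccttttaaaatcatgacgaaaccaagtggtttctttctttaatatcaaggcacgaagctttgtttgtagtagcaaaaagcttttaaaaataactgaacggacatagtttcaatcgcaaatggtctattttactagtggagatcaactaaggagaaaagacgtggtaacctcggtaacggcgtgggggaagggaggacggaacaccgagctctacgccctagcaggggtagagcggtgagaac
Rheb: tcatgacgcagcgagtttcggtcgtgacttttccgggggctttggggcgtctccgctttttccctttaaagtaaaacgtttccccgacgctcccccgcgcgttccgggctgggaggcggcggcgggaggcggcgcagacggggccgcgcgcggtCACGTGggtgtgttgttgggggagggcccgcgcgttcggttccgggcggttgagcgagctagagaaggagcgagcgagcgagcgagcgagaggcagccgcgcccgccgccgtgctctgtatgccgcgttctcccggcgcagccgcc

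The Rheb window held 1 E-box, 96 bases before the start, and the windows of Slc3a2 and Rptor held none. Of the 10 members, 6 had a window in the table, Mtor, Slc7a6 and Slc38a2 being the others, and only that of Rheb held CACGTG, which 7.15% of 32851 windows of this length hold. The letters TGATGNAA, the core of the element through which ATF4 and C/EBP proteins act when amino acids are short, searched on both strands, were in none of these windows and in 3.97% of all. The windows were unlike in composition. The Rheb window had 70.0% G and C and 47 CG dinucleotides, more than in 98.6% of windows, whereas the Rptor window had 41.7% and 13 and the Slc3a2 window 56.0% and 15, beside medians of 52.7% and 7 over all windows.

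As deposited, Myc showed the largest difference of the 10 genes between the tissues, whereas with the T cell scaling Slc3a2 (log2 ratio 1.18), Rptor (1.12) and Rheb (0.95) differed more. It lies on the plus strand of chromosome 15 from 61985341 to 61990361, and it was at 80.3 FPKM in splenic and 38.1 in lung Tregs, 2.11-fold lower in lung (1.94 to 2.30), with about 1558 and 838 reads. Of the tested symbols, 12.6% had a lower ratio. Its log2 ratio was -1.08 as deposited, -1.51 after rescaling to TPM and -0.80 with the T cell scaling, under which it was no longer past 2-fold. Slc7a5, a gene that Myc is known to activate, was lower by a similar factor, so that Myc stood at 7.11 FPKM for each FPKM of Slc7a5 in spleen and 6.52 in lung, and the interval of that change (0.763 to 1.10) includes 1. The other transporters among the members did not share this factor. Slc3a2 was 1.88-fold higher in lung, Slc38a2 nearly equal, and Slc1a5, Slc7a6 and Slc38a1 were 1.26-fold, 1.33-fold and 1.35-fold lower. The part of Myc in any of these values was not tested. Myc is an immediate early gene that responds to stimulation and to tissue handling within a short time. Of 12 immediate early and dissociation genes, 8 were higher in lung and 4 lower, with Ier3, a stress response gene, highest by ratio (2.41 FPKM in spleen and 45.1 in lung) and Egr1, a transcription factor induced by receptor signals, lowest (82.5 and 28.8). The part of handling in the level of Myc was not tested.

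Among the genes of the Myc and Max network, Max, with which Myc binds DNA, was, like Myc, lower in lung, with 23.2 FPKM in spleen and 14.7 in lung. Mxd1, which competes with Myc for Max and represses, was at 29.5 and 91.2 FPKM, 3.09-fold higher in lung, and Mnt, another such repressor, at 2.09 and 4.02. For each FPKM of Mnt there were 38.4 FPKM of Myc in spleen and 9.47 in lung, and 26.3% of all pairs of tested symbols differed at least as much. Of the 9 tested genes of the network other than Myc, 6 were higher in lung, with a median log2 ratio of 0.21 that became -0.22 after rescaling to TPM, and Mlx was the lowest, at 62.7 FPKM in spleen and 35.8 in lung. Mycn was at 0 in both libraries, and Mycl at 0.655 FPKM in spleen and 0 in lung.

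Genes that Myc is known to activate for ribosome building and growth were mostly lower in lung. Of 19 such genes, 15 were lower and 4 higher, against 5539 lower and 5882 higher of the 11421 tested symbols, with a median log2 ratio of -0.45 that ranged from -0.88 to -0.17 over the 4 scalings. Polr1b, a subunit of RNA polymerase I, had 9.54 FPKM in spleen and 3.25 in lung, Srm, the spermidine synthase, at 54.4 and 24.1, and Cad, which starts pyrimidine synthesis, at 6.74 and 3.25, and these 3 were over 2-fold lower, a share near the 13.7% of all tested symbols. After rescaling to TPM 9 of the 19 were over 2-fold lower, and with the T cell scaling 1 was. A mean of at least 10 FPKM took out Polr1b and Cad and left Srm over 2-fold lower. Odc1, the first enzyme of polyamine synthesis, went the other way, from 74.8 FPKM in spleen to 291 in lung, 3.89-fold higher. The 11 tested cell cycle genes were not lower as a group, with 8 higher and 3 lower in lung and a median log2 ratio of 0.44 (0.01 after rescaling to TPM).

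Other genes that move amino acids or sense them were described by lists of their function, in which 130 of 151 genes reached a mean of 1 FPKM. Of these 130 genes, 21 (16.2%) were over 2-fold higher and 11 (8.46%) over 2-fold lower in lung, against 16% and 13.7% of all tested symbols, and the median log2 ratio was -0.02. The share of higher genes was thus near that of all symbols.

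At the plasma membrane, 22 transporters outside the 10 members were listed and 9 tested. Of these, 6 were higher in lung, 5 of them over 2-fold, and 3 lower, 1 of them over 2-fold. Over all tested symbols 16% were over 2-fold higher and 13.7% lower, and at 1 to 10 FPKM 24.3% and 22.9%. After rescaling to TPM, or with a pseudocount of 1 FPKM, 3 of the 9 were over 2-fold higher. Only Slc6a6 reached a mean of at least 10 FPKM, and it was over 2-fold higher. With no filter on low values, 6 of the 22 were over 2-fold higher and 7 over 2-fold lower. Slc7a2, a carrier of arginine and other cationic amino acids, had the highest ratio, at 0.334 FPKM in spleen and 4.74 in lung, and the other 4 over 2-fold higher were Slc7a7, Slc6a6, the taurine transporter (10.8 and 23.9 FPKM), Slc16a10, which carries aromatic amino acids (0.725 and 2.02), and Slc1a4, an alanine and serine transporter (0.675 and 1.62). Slc6a6 was the most highly expressed of the 22 in both libraries and still lay below Slc3a2, Slc1a5 and Slc38a2. Slc7a10 was the lowest by ratio. In lung 12 of the 22 genes were listed at 0, and in spleen 5, against 10638 and 9542 of all 24346 symbols.

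At the lysosome, where mTORC1 is activated, all 7 amino acid transporters tested were higher in lung, 5 of them over 2-fold, with a median log2 ratio of 1.16. Of the 11421 tested symbols, 5882 were higher in lung. The share over 2-fold higher was 16% of all tested symbols and 24.3% of those at 1 to 10 FPKM. After rescaling to TPM or to equal upper quartiles, 6 of the 7 were higher, 3 of them over 2-fold. Only Slc15a4 and Pqlc2 reached a mean of at least 10 FPKM, and of these Pqlc2 was over 2-fold higher. Slc36a4 was the highest by ratio, at 2.85 FPKM in spleen and 11.3 in lung, followed by Slc36a1 (1.52 and 5.22), Pqlc2, which exports cationic amino acids (4.93 and 15.6), Slc38a9, the arginine sensor of mTORC1 (3.38 and 7.55), and Slc38a7 (4.86 and 10.6). Slc15a4, a histidine and peptide transporter, was nearly equal at 11.9 and 13.3 FPKM. The Rag GTPases and the Ragulator, which hold mTORC1 at that membrane, were higher in 8 of 9 genes, none over 2-fold, with a median of 0.43 that became -0.0017 after rescaling to TPM, under which 4 were higher. With the T cell scaling 4 were over 2-fold higher. Lamtor2 had the highest ratio in this list, at 157 FPKM in spleen and 304 in lung, and Rragd the lowest, at 4.54 and 2.49. Macrophages are rich in lysosomes, and the macrophage genes were higher in the same library; their part in these values was not tested.

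**Figure D4:**
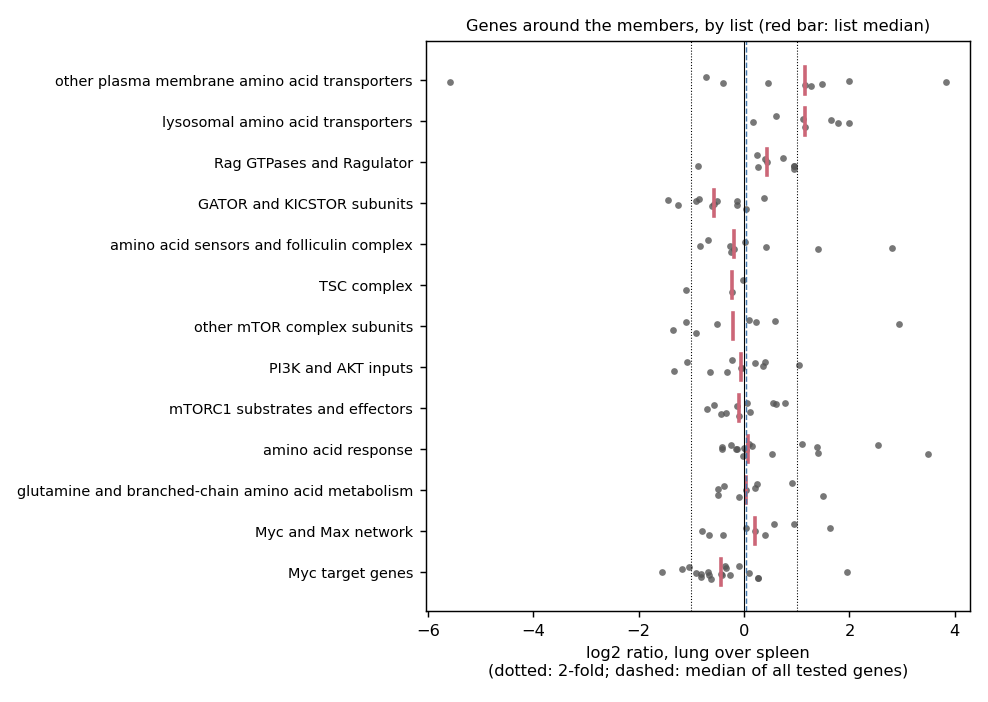
The log2 ratio of lung over spleen for each tested gene of 13 lists (grey points), with the median of each list (red bar) and of all tested genes (dashed). The lysosomal transporters lie to the right of 0 and the GATOR and KICSTOR subunits and Myc target genes mostly to the left; the leftmost point is Slc7a10, which is at 0 in lung and drawn at the floor of 0.1 FPKM.

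Most subunits of the complexes upstream of the Rag GTPases were lower in lung, and their sensors were mixed. Among 11 subunits of GATOR1, GATOR2 and KICSTOR, complexes that relay amino acid levels to the Rag GTPases, 9 were lower in lung. Of the 11421 tested symbols, 5539 were lower. The median log2 ratio of the 11 subunits was -0.57 and ranged from -1.0 to -0.29 over the 4 scalings. Wdr24, at 19.2 FPKM in spleen and 7.02 in lung, and Mios, at 13.7 and 5.71, both subunits of GATOR2, were over 2-fold lower, and Sec13, which also serves in vesicle coats, was the highest by ratio, at 124 and 161. Of the TSC complex, which keeps Rheb inactive, Tsc1 had 7.88 FPKM in spleen and 3.68 in lung, over 2-fold lower, and Tsc2 was at 12.1 and 11.9. Of 9 sensors and folliculin complex genes, 4 were higher and 5 lower, numbers that became 7 and 2 with the T cell scaling and 2 and 7 after rescaling to TPM. Sesn2, a leucine sensor that is also induced by stress, was at 3.31 and 8.75 FPKM and Fnip2, a partner of folliculin, at 0.280 and 1.97, both over 2-fold higher, while Flcn itself was the lowest by ratio at 25.8 and 14.4. Over all tested symbols 16% were over 2-fold higher and 13.7% over 2-fold lower. With the T cell scaling 1 GATOR and KICSTOR subunit and 0 TSC genes were over 2-fold lower. After rescaling to TPM these numbers were 5 and 1.

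The other subunits of the mTOR complexes varied in both directions, 4 of 8 tested genes being higher and 4 lower in lung. Deptor, an inhibitor of mTOR, had 0.236 FPKM in spleen and 1.80 in lung, and the splenic value rested on about 14 reads. Mapkap1, a subunit of mTORC2, was at 28.0 and 11.0 FPKM, and Tti1, which helps to assemble mTOR complexes, at 10.8 and 5.01, both over 2-fold lower. Mlst8, a subunit of mTORC1 and mTORC2, was at 8.35 and 4.46 FPKM, lower in lung but within 2-fold. Among 11 PI3K and AKT genes, Pdpk1, the kinase that activates AKT, was 2.05-fold higher in lung (15.4 and 31.7 FPKM), and the catalytic subunits Pik3cd (94.1 and 37.5) and Pik3ca (8.88 and 4.19) were 2.51-fold and 2.12-fold lower. Over all tested symbols 16% were over 2-fold higher and 13.7% over 2-fold lower. With the T cell scaling 1 of the 8 subunits and 1 of the 11 PI3K and AKT genes were over 2-fold lower. After rescaling to TPM these numbers were 3 and 3. No gene among the 11 tested substrates and effectors of mTORC1 was over 2-fold different. Their lowest and highest ratios were those of Ulk1, the kinase that starts autophagy (10.3 and 6.30 FPKM), and Eef2k, which slows translation elongation (1.74 and 2.99).

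Genes that respond to a lack of amino acids lay on both sides. Of 16 tested genes, 9 were higher and 7 lower in lung (14 and 2 with the T cell scaling, 6 and 10 after rescaling to TPM), with a median log2 ratio of 0.07 that ranged from -0.36 to 0.35 over the scalings. Atf4, the transcription factor of this response, had 88.1 FPKM in spleen and 90.9 in lung, and Asns, which makes asparagine and is a known target of ATF4, at 2.75 and 2.72. Trib3, another target, was the lowest by ratio, at 2.36 and 1.75. Over 2-fold, 5 of the 16 were higher and 0 lower, against 16% and 13.7% of all tested symbols, and after rescaling to TPM 2 were higher. The 5 genes were Nupr1 (2.31 and 25.8 FPKM), Cebpb (47.0 and 272), Sesn2, Cebpg (6.95 and 18.2) and Ddit3, the stress factor CHOP (35.1 and 75.7). Cebpb is also a factor of macrophages, and 5 genes of the immediate early and dissociation list were over 2-fold higher in lung; the part of either in these values was not tested. Promoter windows were available for all 17 listed genes, and those of Aars, Asns, Chac1, Nupr1 and Trib3 held TGATGNAA. Of these 5, Nupr1 alone was over 2-fold higher in lung, and Chac1 was under the filter, at 0.283 FPKM in spleen and 0 in lung.

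Most tested genes that use glutamine and branched-chain amino acids inside the cell differed little. Of 9 tested genes, 5 were higher and 4 lower in lung, with a median log2 ratio of 0.03 that ranged from -0.40 to 0.31 over the scalings. Got1, the cytosolic aspartate aminotransferase, was the highest by ratio, at 18.8 FPKM in spleen and 52.9 in lung and the only one over 2-fold. With the T cell scaling 2 of the 9 were over 2-fold higher. Over all tested symbols, as deposited, 16% were over 2-fold higher and 13.7% over 2-fold lower. Bcat1, which starts the breakdown of branched-chain amino acids, was under the filter, at 1.32 FPKM in spleen and 0.0889 in lung, while Bcat2, its mitochondrial counterpart, was at 42.9 and 32.9.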

How the data were processed

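Bulk RNA-seq of Tregs was available as 1 library for spleen and 1 for lung, assigned from the labels. RNA was amplified with SMART-Seq HT, which marks neither strand nor molecule. The deposited FPKM are those the authors calculated with Cuffdiff (2.2.1) after alignment to mm10, for which their processing notes name Bowtie2 (2.2.8), TopHat2 (2.1.1) and SAMtools (0.1.18). The annotation, the options of Cuffdiff and the scaling between libraries are not given in the sources used here. The FPKM summed to 599633 in spleen and 808853 in lung.

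Ratios of lung to spleen were computed after a floor of 0.1 FPKM, and genes with a mean of at least 1 FPKM were tested for passing 2-fold. Reads were estimated for 23016 symbols (94.5%) from the median effective length of GENCODE M21 transcripts tied to RefSeq, with fragments of mean 200 and SD 80. At an effective length of 1 kb, 1 read was worth 0.0964 FPKM in spleen and 0.0849 in lung, and 72.9% and 75.0% of the values of 1 to 10 reads lay within 0.1 of a whole number. Intervals of a gene's ratio between libraries are exact binomial, and those of ratios between genes are Poisson intervals on the log scale. The steps were tested on simulated data.

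The members and lists were chosen with earlier results of these data known. Named are all members, the genes with the highest and lowest ratio of each pathway list (1 of them is not reported here), pathway genes past 2-fold, Foxp3 and Cd4, and of the marker lists only the most abundant macrophage and lung epithelium genes. Further list genes were chosen after their values were seen: Atf4, Asns, Max, Mnt, Bcat1, Bcat2, Tsc2, Mlst8, Slc7a8, Slc7a11, Slc38a3 to Slc38a5, Chac1, Mycn, Mycl, Ier3, Egr1, Epcam and Rptoros. Of the listed genes, 1 was matched through a synonym and 2 were not found. A planned comparison of protein sequences was not made. Other floors, pseudocounts, scalings, folds and filters were tried. Calculations were run in Python (3.11.15), with scipy (1.17.1) for intervals, pandas (2.3.3) and numpy (2.4.6) for tables and matplotlib (3.10.9) for plots.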

Additional observations from a re-analysis of the deposited data

How the results depend on the processing

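With 1 library per tissue, no library could be left out, and nothing below bears on variation between mice. Floors of 0.01 and 1 FPKM and pseudocounts of 0.1 and 1 FPKM left the number of members past 2-fold at 0 higher and 1 lower, and 8 of the 10 members kept their direction in each of the 8 settings of floor, pseudocount and scaling, with Slc38a2 and Mtor as the exceptions. The scaling mattered more. With the T cell scaling 2 members, Slc3a2 and Rptor, were over 2-fold higher, 0 were over 2-fold lower, and the median log2 ratio of the members was -0.0067. After rescaling to TPM 2 members, Slc7a5 and Myc, were over 2-fold lower and the median was -0.71, and with equal upper quartiles the same 2 were lower and the median was -0.46. At a fold of 1.5, 3 members were higher and 2 lower, and at a fold of 3 none was lower (0).

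Of the genes around the members, 21 were over 2-fold higher and 11 lower as reported. Rescaling to TPM gave 13 higher and 29 lower, and equal upper quartiles gave 16 and 17. The T cell scaling gave 28 and 5, and a pseudocount of 1 FPKM gave 16 and 7. With no filter on low values 22 were higher and 21 lower, and with a mean of at least 10 FPKM 10 were higher and 4 lower. The scalings shift all ratios alike, and the filters change the number of genes tested. A pseudocount moves each ratio toward 1, and more so for genes at low levels. Counts of single lists stayed within 1.5 times in 228 of 280 comparisons and moved further in 52.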
